A study of Homo sapiens with 60 samples.

Results

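Aminoacyl-tRNA synthetases join each amino acid to its transfer RNA, the step that supplies charged tRNAs to the ribosome. Human cells keep one set of these enzymes in the cytosol and another, also encoded in the nucleus, for the ribosomes inside mitochondria. The genes described here are 35 synthetase genes, 19 cytosolic and 16 mitochondrial, out of 60675 genes in the count table. They were chosen by name: the symbols of the mitochondrial enzymes end in 2, and the Ensembl identifiers of the table were matched to current symbols, with 17 of the 35 carrying an older symbol in the GENCODE 29 annotation. All 35 were found and all 35 passed the filter on low counts. GARS1 and KARS1, counted here as cytosolic, are known to encode the enzyme of both compartments, and the aspartyl enzymes were not analysed here.

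The cells were A549, a human lung adenocarcinoma line, treated for 24 h with ethanol extracts of medicinal plants or of plant mixtures. The doses of Polygalae Radix were 15.2, 76 and 380 µg/mL. Those of Aucklandiae Radix were 14.8, 74 and 370 µg/mL, and both extracts had 2 libraries per dose. All others were used at 20, 100 and 500 µg/mL, with 3 libraries per dose for Menthae Herba, Guibi-tang, Saposhnikoviae Radix and Saengmaek-san, 2 for Soyo-san and 1 for Okbyeongpung-san. The vehicle group held 3 libraries of cells given DMSO, at 0.1% per the sample labels and 2% per the series' design text. For Polygalae Radix and Aucklandiae Radix the high dose was the IC20 of the extract, per the series' design text. The 3 doses are called low, medium and high below.

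Synthetase genes are known targets of the integrated stress response, in which kinases sensing uncharged tRNA or misfolded protein raise the transcription factor ATF4. ATF4 pairs with C/EBP factors at a composite element and raises genes of amino acid synthesis, amino acid uptake and tRNA charging. The enzymes of the cytosolic set, more than those of the mitochondrial set, are known for this control. Several cytosolic synthetases (EPRS1, IARS1, LARS1, MARS1, QARS1, RARS1 and KARS1) sit in a multisynthetase complex held by the scaffolds AIMP1, AIMP2 and EEF1E1.

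The composite element was searched for as TGATGNAA on both strands (TTNCATCA on the other) in RefSeq promoter windows of GRCh38.p14, each of 300 bases from 250 before to 50 after an annotated start. Some genes had more than 1 window (21 windows for the 16 cytosolic genes searched). The letters were present for 7 of these 16 genes (43.75%), for 1 of 14 mitochondrial genes (7.143%) and for 1217 of all 27305 genes in the table (4.457%). LARS1, VARS1, YARS1, AARS2 and VARS2 were not searched. The 8 matches are shown because the genes that hold them are set against the calls further on. Each is given as 30 bases on the strand of the gene, 5′ to 3′, with the matched letters in capitals:
AARS1: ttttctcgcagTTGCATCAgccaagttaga (chr16:70289675-70289704, minus strand)
CARS1: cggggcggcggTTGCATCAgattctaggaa (chr11:3057407-3057436, minus strand)
GARS1: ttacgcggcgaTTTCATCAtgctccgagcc (chr7:30594834-30594863, plus strand)
IARS1: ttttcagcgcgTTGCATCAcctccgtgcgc (chr9:92293692-92293721, minus strand)
MARS1: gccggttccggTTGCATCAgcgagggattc (chr12:57488053-57488082, plus strand)
NARS1: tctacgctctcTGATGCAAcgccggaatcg (chr18:57621804-57621833, minus strand)
TARS1: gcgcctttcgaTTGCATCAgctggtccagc (chr5:33440956-33440985, plus strand)
YARS2: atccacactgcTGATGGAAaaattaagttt (chr12:32756076-32756105, minus strand)
Of the cytosolic matches, 6 read TTGCATCA or its complement and the GARS1 match reads TTTCATCA. They lay within 33 bases of the annotated start in 6 of the 7 genes, and the AARS1 match began 187 bases before it. Counting only the bases before the start, 3 cytosolic genes, 1 mitochondrial gene and 3.886% of all genes held the letters. A match is a description of the letters and not a measured binding site.

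Library totals lay between 17113963 and 33363661 expected counts. Levels are counts scaled to TMM library sizes (CPM) and are relative to the other RNA of a library; fewer cells and less RNA per cell cannot be told apart in them. Of the 5 epithelial markers listed, the keratins KRT8 and KRT18 had medians of 3550 and 2680 CPM over the libraries. The others were lower, at 30.6 (CDH1), 29.2 (KRT19) and 5.05 CPM (EPCAM). Leukocyte markers summed to at most 6.03 CPM, endothelial markers to at most 0.368 CPM and fibroblast markers to 13.6 to 46.4 CPM. The fibroblast genes COL1A1 (median 30.3 CPM) and COL3A1 (5.49 CPM) were at levels like those of CDH1 and EPCAM. One Ensembl gene, ENSG00000282955, split the libraries into 38 with at most 3.44 CPM (class 1) and 22 with at least 19.3 CPM (class 2), a split the labels do not record. The vehicle, Soyo-san and Okbyeongpung-san libraries were all class 2. Those of Aucklandiae Radix and Menthae Herba were all class 1, and the other extracts held both. Within the 9 groups that held both classes, 9 cytosolic members were higher and 2 lower in class 2 (median log2 difference 0.08), against 5 higher and 4 lower mitochondrial members (median 0.00), where 22.8% of all genes were higher and 20.5% lower. The vehicle libraries also formed a library set of their own in the labels, so library set and extract cannot be told apart in comparisons with vehicle. Some members had a vehicle mean at the edge of all groups. HARS1 (92.11 CPM) was lower only at the Polygalae Radix high and medium doses, and YARS2 (30.45) and HARS2 (38.01) only at its high dose. FARS2 (10.04) was lower only at the Polygalae Radix and Menthae Herba high doses. MARS2 (19.19) and FARSB (126.8) were highest in vehicle. Their calls against vehicle are to be read with that. The high against low comparisons are within one set, and for Menthae Herba, Aucklandiae Radix and Soyo-san within one class.

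In vehicle cells the cytosolic enzymes were the more abundant transcripts per length of annotated exon. Their vehicle levels had a median of 37.6 CPM per kilobase over the 19 genes, with a range of 6.87 to 66.9, and the 16 mitochondrial genes had a median of 6.65 with a range of 2.08 to 52.3. AARS1, the alanyl enzyme, was highest at 66.9 ± 1.46 CPM per kilobase (SD, n = 3), followed by IARS1 at 56.7 ± 0.749, GARS1 at 55.5 ± 1.43 and KARS1 at 55.4 ± 1.35, levels whose ranges over the vehicle libraries overlapped for IARS1, GARS1 and KARS1. IARS2, the mitochondrial isoleucyl enzyme, ranked 5 at 52.3 ± 0.551 CPM per kilobase and stood apart from the other mitochondrial genes, of which SARS2 came next at 16.7 ± 0.904. CARS1 at 6.87 ± 0.194 was the lowest of the cytosolic set.

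**Figure D1:**
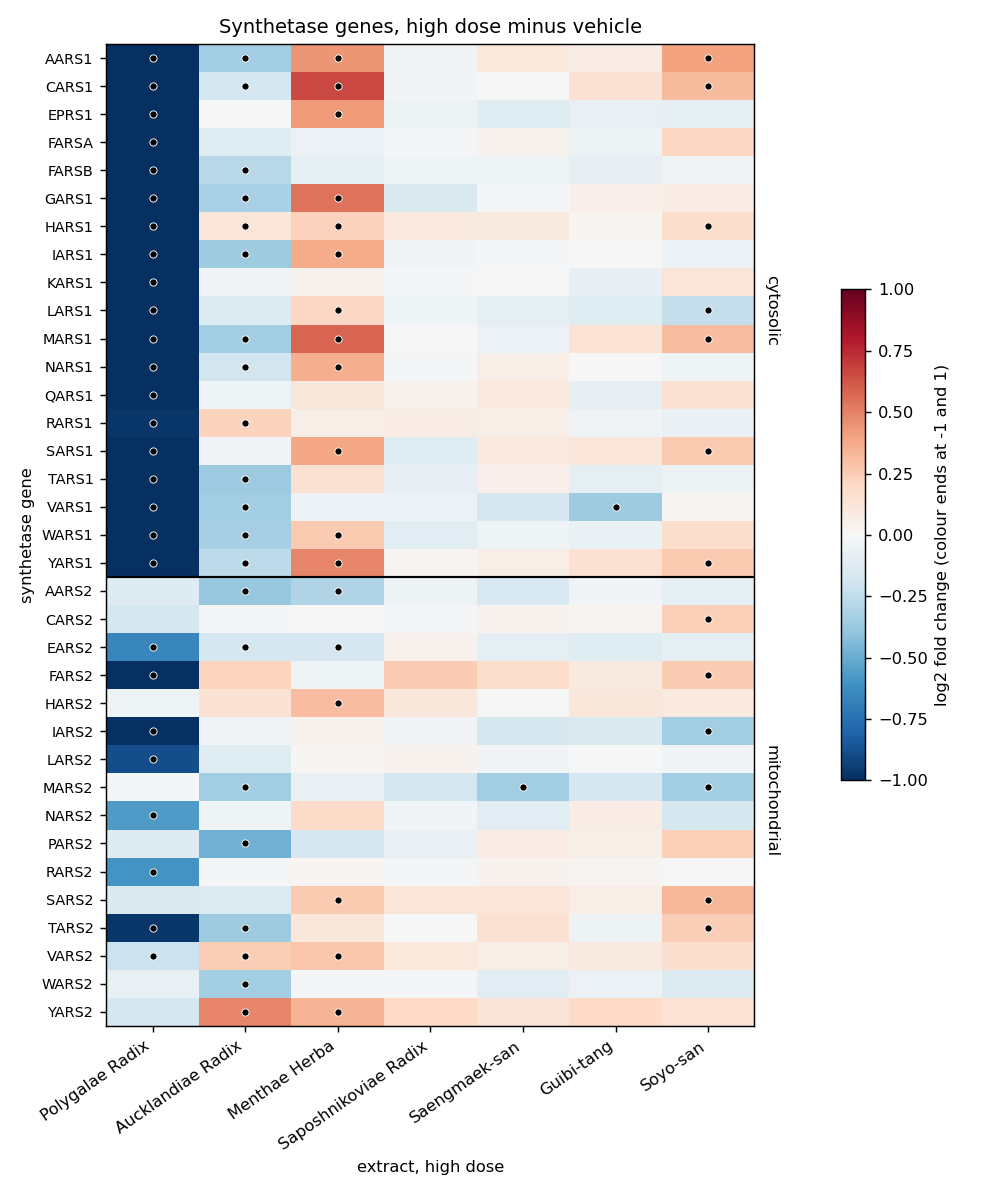
Log2 fold change of each synthetase gene (rows, cytosolic above the line and mitochondrial below it) at the high dose of 7 extracts minus vehicle (columns), as colour that ends at -1 and 1. Dots mark members past an adjusted p of 0.05. The Polygalae Radix column is dark blue over the cytosolic rows, while Menthae Herba is above 0 in 16 of the 19 and dotted in 12.

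With Polygalae Radix at the high dose, every cytosolic synthetase transcript fell. All 19 were called lower than vehicle and none higher, with log2 fold changes from -3.03 to -0.97 and a median of -1.82. Among all 18396 genes tested, 29.5% were lower and 30.1% higher in the same comparison, and the median of all genes was 0.05. Of the 16 mitochondrial synthetases, 8 fell and 8 were not called, with a median of -0.20. The cytosolic genes summed to 1104 and 1062 CPM in the Polygalae Radix high dose libraries, against 3436, 3495 and 3454 CPM in the vehicle libraries. The mitochondrial genes summed to 391.5 and 427.4 CPM at that dose, against 604.3, 611.9 and 604.2 CPM in vehicle.

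EPRS1, which charges both glutamate and proline tRNAs, fell most. It stood at 26.06 and 32.0 CPM in the Polygalae Radix high dose libraries, against 241.6, 228.7 and 242.7 CPM in the vehicle libraries. The treated libraries were far below every vehicle library, and the log2 fold change was -3.03 ± 0.07 (SE, adjusted p = 6.08e-31), a level 0.1226 times that of vehicle. AARS1 measured 66.93 and 63.54 CPM in treated cells, against 297.4, 308.5 and 296.8 CPM in vehicle cells, again without overlap, for a log2 fold change of -2.21 ± 0.06 (adjusted p = 1.71e-28). MARS1 (methionyl, -2.17 ± 0.08), WARS1 (tryptophanyl, -2.09 ± 0.10), VARS1 (valyl, -2.01 ± 0.08) and YARS1 (tyrosyl, -1.94 ± 0.06) followed, with adjusted p between 4.40e-27 and 1.93e-21. The smallest decreases were those of RARS1 (arginyl, -0.97 ± 0.06), HARS1 (histidyl, -1.02 ± 0.05), LARS1 (leucyl, -1.04 ± 0.06) and KARS1 (lysyl, -1.04 ± 0.10). Members of the multisynthetase complex stood at both ends of this range, EPRS1 at the one and RARS1, LARS1 and KARS1 at the other. Its scaffolds AIMP2 (-0.95 ± 0.08) and AIMP1 (-0.83 ± 0.10) fell, and EEF1E1 had a log2 fold change of -0.05 ± 0.11 that was not called.

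Among the mitochondrial enzymes the largest decrease was that of FARS2, the phenylalanyl enzyme. It had 4.107 and 5.239 CPM at the Polygalae Radix high dose, against 10.08, 10.97 and 9.064 CPM in vehicle, with no overlap and a log2 fold change of -1.09 ± 0.11 (adjusted p = 1.44e-11). IARS2 fell by 1.02 ± 0.09 on the log2 scale (adjusted p = 2.42e-13) and TARS2 (threonyl) by 0.97 ± 0.08 (adjusted p = 1.29e-13). LARS2, EARS2, RARS2, NARS2 and VARS2 also fell, by 0.88 to 0.22. AARS2, CARS2, HARS2, MARS2, PARS2, SARS2, WARS2 and YARS2 were not called, at -0.17 to -0.01.

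Set side by side for the same amino acid, the cytosolic log2 fold change was the lower one in all 17 pairs of Polygalae Radix high dose against vehicle, with a median difference of -1.46. EPRS1 pairs with both EARS2 and PARS2, and FARSA and FARSB, the subunits of the cytosolic phenylalanyl enzyme, pair with FARS2, so the pairs share genes. The gap was widest for proline (EPRS1 and PARS2, -2.90), glutamate (EPRS1 and EARS2, -2.37) and methionine (MARS1 and MARS2, -2.16). It was narrowest for phenylalanine with FARSA (-0.05) and for leucine (-0.16). No amino acid had its enzymes called in opposite directions there.

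The loss was already present at the medium dose and absent from the calls at the low dose. At the medium dose, 18 of 19 cytosolic genes and 4 of 16 mitochondrial genes were lower than vehicle, where 18.3% of all genes were called in either direction. Their medians were -0.56 and 0.00. EPRS1 measured 89.11 and 111.1 CPM at the medium dose and 222.1 and 234.8 CPM at the low dose. In order from low to high dose, the mean of AARS1 was 294.1, 168.0 and 65.23 CPM. FARSA was the cytosolic gene not called at the medium dose, at -0.14. At the low dose FARS2 was the sole member called, higher at 0.37 ± 0.10 (adjusted p = 0.0191), where 6.39% of all genes were called. That call was lost without vehicle replicate 1 or 3 or either treated library (adjusted p up to 0.169), and at the medium dose IARS2 was lost without treated replicate 2 and MARS2 also without vehicle replicate 1 or 3. Medium dose replicate 2 was class 2 (IARS2 at 153.9 CPM) and replicate 3 class 1 (201.1 CPM). Within the groups that held both classes, this one among them, the log2 difference of class 2 minus class 1 was -0.16 for IARS2 and -0.20 for MARS2.

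Against the low dose of the same extract, Polygalae Radix at the high dose again had all 19 cytosolic genes lower (median -1.68) and 9 of 16 mitochondrial genes lower (median -0.34), where 29.1% of all genes were lower and 27.9% higher. EPRS1 (-2.97 ± 0.07), AARS1 (-2.17 ± 0.07), MARS1 (-2.14 ± 0.08), YARS1 (-1.996 ± 0.07), WARS1 (-1.95 ± 0.10) and QARS1 (glutaminyl, -1.88 ± 0.08) fell most, with adjusted p between 5.50e-30 and 1.25e-19. FARS2 fell by 1.45 ± 0.11, IARS2 by 1.05 ± 0.09 and TARS2 by 0.99 ± 0.09. The cytosolic change was the lower one in 15 of 17 amino acid pairs, the exceptions being the phenylalanine pairs. The high dose group held 1 library of each class, the low dose group class 1 alone. Within class 1 the cytosolic median was -1.81 against the low dose, and within class 2 it was -1.74 against vehicle. Each of these values rests on 1 high dose library, whose spread is assumed to be like that of the other groups. The mitochondrial median against vehicle, -0.20 with all libraries, moved to -0.33 without high dose replicate 2 and to -0.30 without high dose replicate 3.

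**Figure D2:**
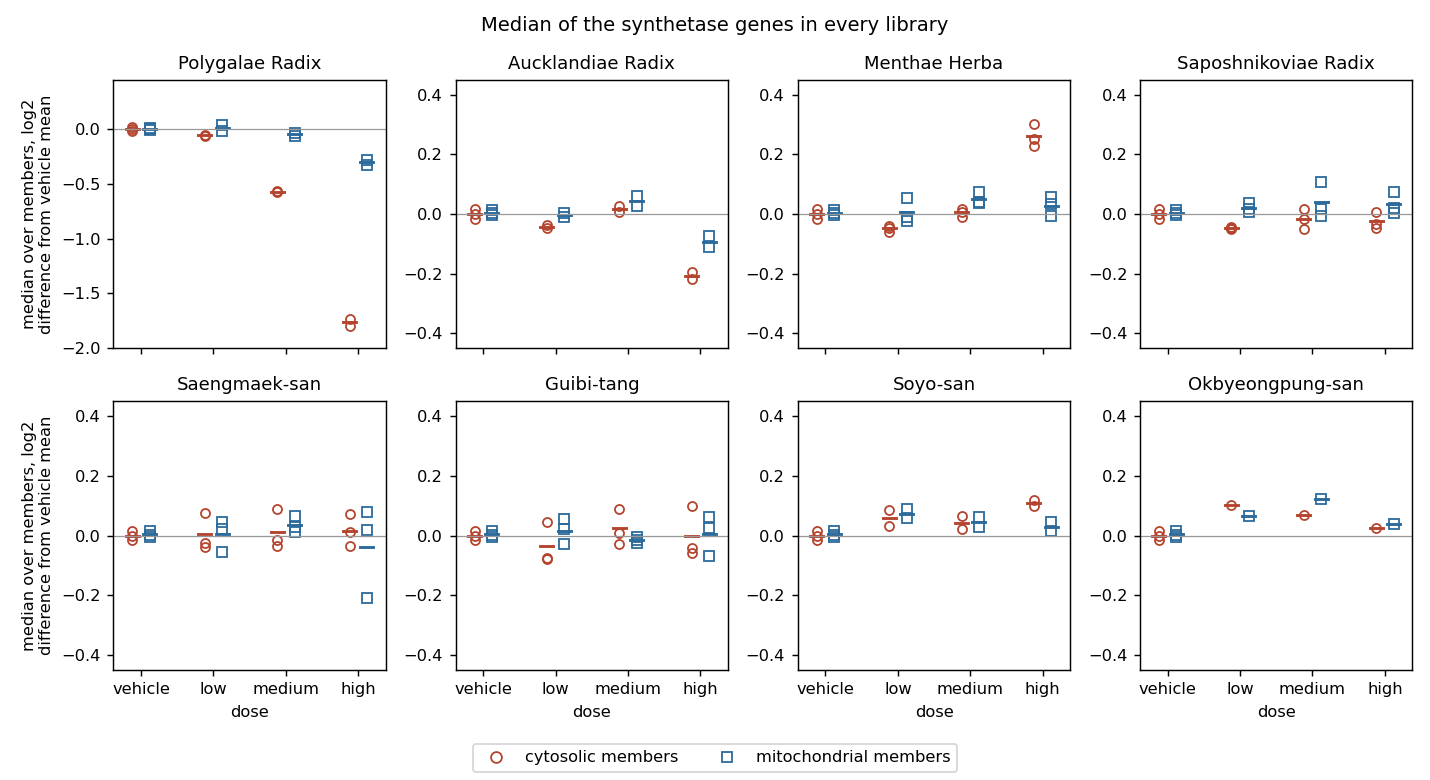
Each point is a library: the median over the 19 cytosolic (circles) or 16 mitochondrial (squares) genes of the log2 difference from the vehicle mean, by dose of each extract, with bars at the group mean. The Polygalae Radix panel has its own axis, on which the cytosolic medians reach -1.73 and -1.80 at the high dose, and the Menthae Herba cytosolic medians stand at 0.23 to 0.30 at the high dose.

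With Menthae Herba at the high dose, cytosolic synthetases rose. Against the low dose of the same extract, 12 of 19 cytosolic genes rose and none fell, with a median of 0.34, where 6.07% of all genes were higher and 9.45% lower. Of the 16 mitochondrial genes none rose and 1 fell, with a median of 0.07. The cytosolic genes summed to 4222, 4323 and 4375 CPM in the Menthae Herba high dose libraries, against 3278, 3347 and 3329 CPM in the low dose libraries. Libraries of these groups did not overlap in that sum. The mitochondrial sums were 620.8, 649.5 and 651.4 CPM at the high dose, against 602.6, 626.5 and 630.4 CPM at the low dose, and did overlap.

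GARS1, the glycyl enzyme, rose most. It had 326.8, 335.1 and 344.0 CPM at the Menthae Herba high dose, against 190.8, 205.6 and 201.8 CPM at the low dose. All high dose libraries were above all low dose libraries, and the log2 fold change was 0.75 ± 0.07 (SE, adjusted p = 5.14e-11). CARS1, the cysteinyl enzyme, had 113.0, 107.7 and 106.3 CPM at the high dose, against 67.23, 67.88 and 68.37 CPM at the low dose, likewise apart, for a log2 fold change of 0.68 ± 0.06 (adjusted p = 1.31e-12). MARS1 (0.61 ± 0.07), EPRS1 (0.51 ± 0.06), AARS1 (0.49 ± 0.05) and IARS1 (isoleucyl, 0.49 ± 0.05) rose with adjusted p between 2.83e-11 and 1.87e-09. YARS1, SARS1 (seryl), WARS1, NARS1 (asparaginyl), LARS1 and TARS1 rose by 0.46 to 0.25. The genes not called were FARSA (-0.03 ± 0.10), FARSB (0.01 ± 0.07), RARS1 (0.01 ± 0.05), QARS1 (0.05 ± 0.06), VARS1 (0.05 ± 0.06), KARS1 (0.10 ± 0.08) and HARS1 (0.10 ± 0.04).

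The mitochondrial member that fell was FARS2, at 9.009, 10.21 and 10.01 CPM with the Menthae Herba high dose, against 12.17, 12.72 and 13.74 CPM with the low dose. Its log2 fold change was -0.40 ± 0.09 (adjusted p = 0.000592), and the groups did not overlap. The other mitochondrial log2 fold changes ran from -0.19 (AARS2) to 0.18 (SARS2). The cytosolic change was the higher one in 14 of 17 amino acid pairs, by a median of 0.36, the exceptions being valine, arginine and histidine. The reading of MARS1 carries a limit of position: it overlaps DDIT3 on the opposite strand by 982 bases, and DDIT3 rose by 1.71 ± 0.14 in the same comparison. The library kit marks strand, but no source used here gives the strand setting of the counting, and the part of DDIT3 in the MARS1 value was not tested. MARS1 also overlaps ARHGAP9, and HARS1 and HARS2 overlap each other by 437 bases on opposite strands. Overlaps here and below are of whole gene spans, introns included, and the overlap of exons was not computed.

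The 7 cytosolic genes whose promoter sequences are printed above were all among the 12 that rose at the Menthae Herba high dose against its low dose. Of the 9 cytosolic genes whose window did not hold the letters, 3 rose (EPRS1, SARS1 and WARS1). Of the 3 not searched, LARS1 and YARS1 rose and VARS1 did not pass the test. YARS2, the mitochondrial gene with the letters, had a log2 fold change of 0.09 ± 0.07 that was not called. In the Polygalae Radix comparison the same 7 genes fell by 1.24 (NARS1) to 2.17 (AARS1), inside the range of the other cytosolic genes. These are counts over few genes and no test was made of them.

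**Figure D3:**
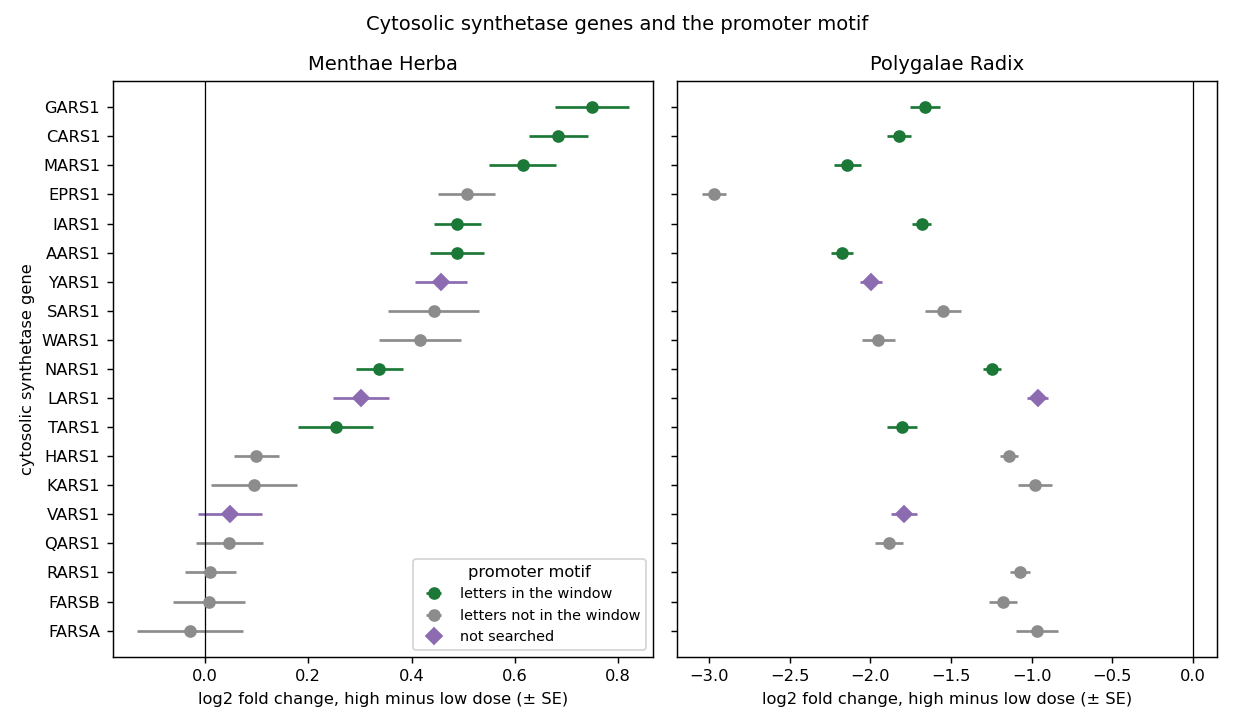
Log2 fold change of the 19 cytosolic synthetase genes, high minus low dose, with SE bars, for Menthae Herba (left) and Polygalae Radix (right), in the order of the Menthae Herba values. Colour shows whether the promoter window held TGATGNAA. At left the 7 genes with the letters lie at 0.25 to 0.75, and at right they are spread among the rest.

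Compared with vehicle, Menthae Herba at the high dose also had 12 cytosolic genes higher and none lower (median 0.26), where 14.6% of all genes were higher and 15.0% lower. CARS1 (0.66 ± 0.06), MARS1 (0.58 ± 0.07), GARS1 (0.54 ± 0.07), YARS1 (0.49 ± 0.05), AARS1 (0.44 ± 0.05) and EPRS1 (0.43 ± 0.06) rose most, with adjusted p between 2.57e-12 and 9.21e-08. AARS1 had 406.3, 414.9 and 406.3 CPM at the Menthae Herba high dose, against 297.4, 308.5 and 296.8 CPM in vehicle, with no overlap. HARS1 was called there (0.23 ± 0.04) and TARS1 was not (0.15 ± 0.07). Of the mitochondrial genes, YARS2 (0.34 ± 0.07), HARS2, VARS2 and SARS2 rose and AARS2 (-0.30 ± 0.09) and EARS2 (-0.17 ± 0.06) fell, so that alanine and glutamate had a higher cytosolic and a lower mitochondrial enzyme. The AARS2 call was lost without vehicle replicate 1 (adjusted p = 0.0727), and the EARS2 call without any vehicle library or without high dose replicate 1 or 3 (adjusted p up to 0.224). The gene span of AARS2 overlaps that of ENSG00000272442 over 13673 bases and that of TMEM151B over 7853 bases on the opposite strand. These spans include introns, and the annotated exons of AARS2 cover 4298 bases. Exon overlap was not computed, and whether part of the AARS2 count belongs to these neighbours was not tested. The vehicle libraries were all of the other library class. A class term could thus be estimated only from the 9 groups, all of other extracts, that held both classes. With class as a covariate the cytosolic median was 0.33 with 15 genes higher, and the mitochondrial median 0.07 with 3 higher and 3 lower. The share of all genes called in that fit is not given here.

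The increase was not seen in the calls at the lower doses of Menthae Herba. At the medium dose HARS1 (0.18 ± 0.04) and YARS2 (0.24 ± 0.07) were higher than vehicle and no other member was called, where 5.54% of all genes were called. Both genes had vehicle means below those of nearly all extract groups, as given above. GARS1 had 219.2, 223.9 and 221.8 CPM in the medium dose libraries, all below the lowest high dose library and above the highest low dose library. At the low dose GARS1 was lower than vehicle (-0.21 ± 0.07, adjusted p = 0.0432), and HARS1, FARS2 (0.36 ± 0.09) and YARS2 (0.25 ± 0.07) were higher, where 13.1% of all genes were called. The lower dose calls rested on single libraries: 0 to 1 were left of 2 at the medium dose, and 0 to 5, against 4 with all libraries, at the low dose, when each library was left out in turn. Saposhnikoviae Radix came from the same library set as Menthae Herba. Menthae Herba at the high dose against Saposhnikoviae Radix at the high dose had 13 cytosolic genes higher and none lower (median 0.37) and 3 mitochondrial genes lower, where 6.27% of all genes were higher and 9.90% lower. GARS1 (0.69 ± 0.07), CARS1 (0.69 ± 0.06), MARS1 (0.57 ± 0.07) and SARS1 (0.51 ± 0.09) led. AARS2 (-0.25 ± 0.09), EARS2 (-0.21 ± 0.06) and FARS2 (-0.29 ± 0.09) fell, again opposite to AARS1 and EPRS1. None of these 3 mitochondrial calls was left without Menthae Herba replicate 1 or without Saposhnikoviae Radix replicate 2. The latter library was class 2, and all other libraries of this comparison were class 1.

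**Figure D4:**
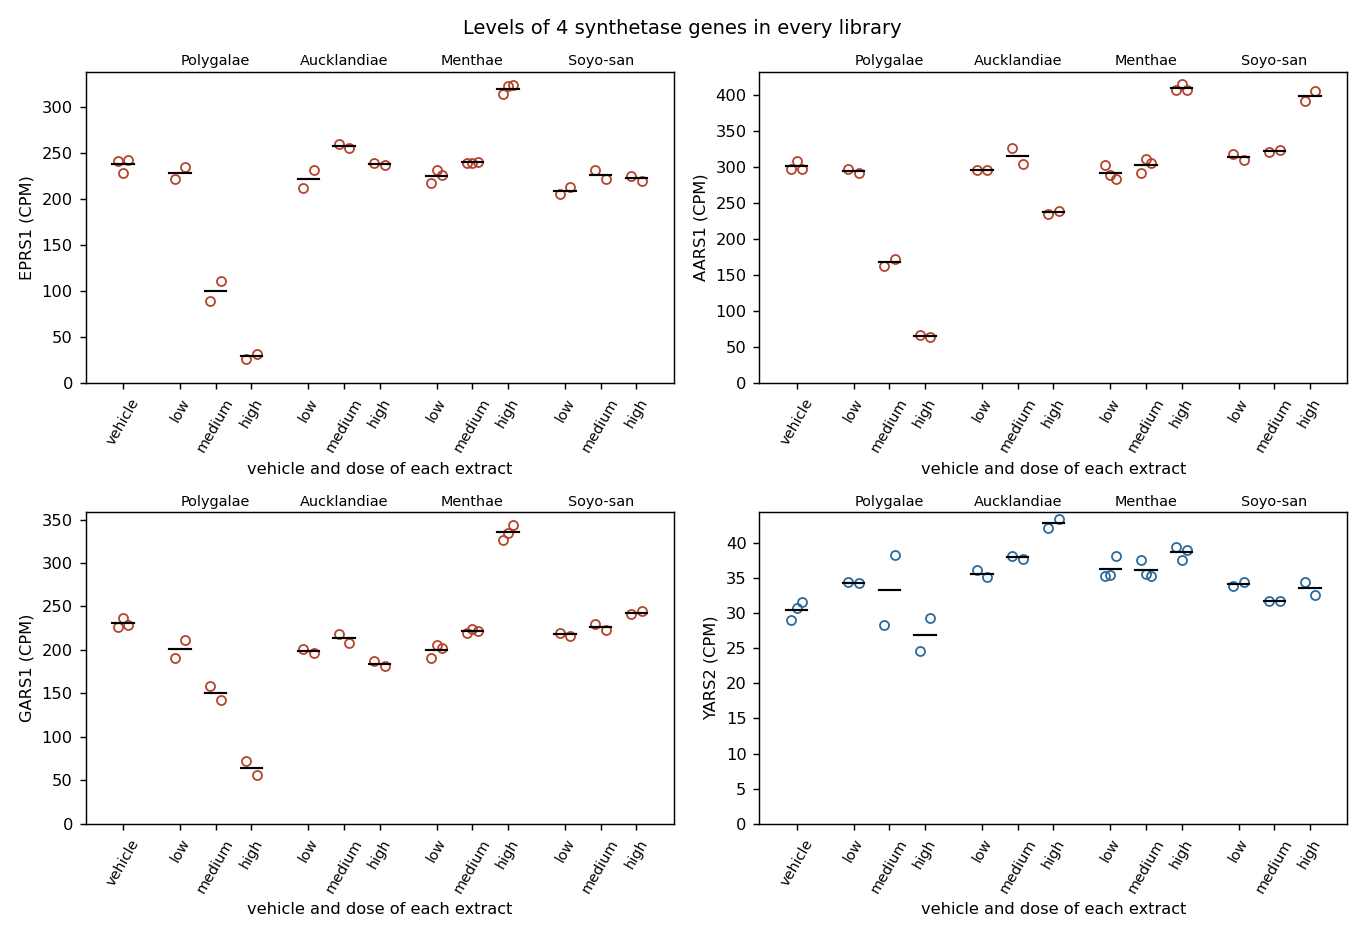
CPM of EPRS1, AARS1, GARS1 (cytosolic) and YARS2 (mitochondrial) in every vehicle library and every library of 4 extracts, by dose, with bars at the group mean and axes from 0. EPRS1, AARS1 and GARS1 step down over the Polygalae Radix doses and stand highest at the Menthae Herba high dose, and AARS1 is also high at the Soyo-san high dose.

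With Aucklandiae Radix at the high dose, part of the cytosolic set fell by small amounts. Against vehicle 11 cytosolic genes were lower and 2 higher (median -0.19), where 17.3% of all genes were lower and 18.5% higher, and 6 mitochondrial genes were lower and 2 higher (median -0.08). TARS1 (-0.36 ± 0.08), IARS1 (-0.36 ± 0.05), MARS1 (-0.35 ± 0.07), VARS1 (-0.35 ± 0.07), AARS1 (-0.34 ± 0.06) and WARS1 (-0.33 ± 0.09) fell most, with adjusted p between 4.41e-07 and 0.00382. TARS1, the threonyl enzyme, had 219.7 and 220.9 CPM at the Aucklandiae Radix high dose, against 281.1, 286.4 and 282.3 CPM in vehicle. IARS1 had 331.4 and 323.6 CPM at that dose, against 416.5, 426.1 and 416.5 CPM in vehicle, and neither gene overlapped between the groups. EPRS1, which fell most with Polygalae Radix, had 239.0 and 236.6 CPM with Aucklandiae Radix, against 241.6, 228.7 and 242.7 CPM in vehicle, and its log2 fold change of 0.00 ± 0.06 was not called. RARS1 (0.23 ± 0.05) and HARS1 (0.12 ± 0.05) were higher.

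YARS2 was the mitochondrial member that moved most with Aucklandiae Radix. It had 42.12 and 43.37 CPM at the high dose, against 29.02, 30.73 and 31.61 CPM in vehicle, without overlap, for a log2 fold change of 0.49 ± 0.08 (adjusted p = 3.31e-06). In order from low to high dose its means were 35.54, 37.89 and 42.75 CPM. PARS2 (prolyl, -0.48 ± 0.15, adjusted p = 0.0125) and AARS2 (-0.38 ± 0.10, adjusted p = 0.00297) fell. Tyrosine (YARS1 -0.26, YARS2 0.49) and valine (VARS1 -0.35, VARS2 0.24) had enzymes called in opposite directions. The gene span of YARS2 overlaps that of DNM1L on the opposite strand over 18161 bases. That of VARS2 overlaps GTF2H4 on the same strand over 5865 bases. These spans include introns, and the annotated exons cover 2152 bases in YARS2 and 8448 in VARS2. Exon overlap was not computed, and whether part of their counts belongs to these neighbours was not tested. The VARS2 call was lost without vehicle replicate 1 or 2 or either treated library, and the PARS2 call without vehicle replicate 2 or treated replicate 2 (adjusted p up to 0.187). With library class as a covariate, estimated from groups of other extracts, the WARS1, PARS2 and VARS2 calls were lost.

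Against its own low dose, Aucklandiae Radix at the high dose had 6 cytosolic genes lower and none higher (median -0.17), where 9.33% of all genes were lower and 9.12% higher. The cytosolic calls in both directions numbered 3 without the filter on low counts, 10 with the replicate block, and 11 with library class as a covariate or with only the libraries compared. The 6 were MARS1 (-0.37 ± 0.08), AARS1 (-0.32 ± 0.06), YARS1 (-0.29 ± 0.06), IARS1 (-0.28 ± 0.06), VARS1 (-0.24 ± 0.08) and NARS1 (-0.22 ± 0.06), with adjusted p between 0.000153 and 0.0220. MARS1 had 213.8 and 214.2 CPM at the high dose, against 275.7 and 276.4 CPM at the low dose. Of the mitochondrial genes TARS2 (-0.36 ± 0.08) and AARS2 (-0.32 ± 0.11) fell and YARS2 (0.27 ± 0.09) rose, so the tyrosine enzymes were again opposite. The calls of VARS1, AARS2 and YARS2 were each lost whichever library was left out (adjusted p up to 0.234). At the medium dose YARS2 (0.31 ± 0.08) was the sole member called against vehicle, where 5.59% of all genes were called. At the low dose it was FARS2 (0.30 ± 0.10), where 7.24% were called. Both calls were lost without vehicle replicate 1 or either treated library, and the FARS2 call also without vehicle replicate 3. Polygalae Radix shared the library set: its high dose against the Aucklandiae Radix high dose, both the IC20 of the extract but not the same mass concentration, gave 19 cytosolic genes lower (median -1.54), where 29.9% of all genes were lower and 28.1% higher. EPRS1 differed by -3.03 ± 0.07, AARS1 by -1.86 ± 0.07 and QARS1 by -1.83 ± 0.08. Of the mitochondrial genes 9 were lower, led by FARS2 (-1.31 ± 0.11), and MARS2 was higher (0.34 ± 0.12), opposite to MARS1 (-1.82 ± 0.08). The MARS2 call was lost without Polygalae Radix replicate 3 or either Aucklandiae Radix library (adjusted p up to 0.384).

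With Soyo-san, a plant mixture, part of the cytosolic synthetases rose. Against vehicle its high dose had 6 cytosolic genes higher and 1 lower (median 0.12), where 13.0% of all genes were higher and 15.6% lower, and 4 mitochondrial genes higher and 2 lower (median 0.05). AARS1 had 391.4 and 405.7 CPM at the Soyo-san high dose, against 297.4, 308.5 and 296.8 CPM in vehicle. The groups were apart, and its log2 fold change was 0.41 ± 0.06 (adjusted p = 2.65e-06). CARS1 had 81.28 and 90.78 CPM, against 66.95, 70.84 and 69.11 CPM in vehicle, also apart. CARS1 (0.32 ± 0.06), MARS1 (0.31 ± 0.07), SARS1 (0.27 ± 0.10), YARS1 (0.26 ± 0.06) and HARS1 (0.17 ± 0.05) also rose, and LARS1 fell (-0.23 ± 0.06). GARS1 (0.07 ± 0.08) and EPRS1 (-0.10 ± 0.06), which rose with Menthae Herba, were not called. IARS2 had 172.1 and 170.7 CPM with Soyo-san, against 215.3, 219.9 and 217.9 CPM in vehicle. Among mitochondrial genes IARS2 (-0.34 ± 0.09) and MARS2 (-0.34 ± 0.12) fell and SARS2 rose (0.33 ± 0.10), and methionine had a higher MARS1 with a lower MARS2. The cytosolic calls in both directions numbered 11 when the fit held the compared libraries alone, 4 without the filter on low counts and 4 without high dose replicate 2, and the SARS1 call was lost whichever library was left out. MARS2 was lost without vehicle replicate 1 or high dose replicate 1, and SARS2 without vehicle replicate 3 or high dose replicate 2. The gene span of SARS2 shares 15493 bases, introns included, with that of ENSG00000269547 on the same strand. The annotated exons of SARS2 cover 3231 bases. Exon overlap was not computed, and whether its count was split between these genes was not tested. Against the low dose of Soyo-san, AARS1 (0.34 ± 0.06, adjusted p = 0.00177) was the sole member called, where 0.402% of all genes were higher and 0.837% lower, a call lost without low dose replicate 2 (adjusted p = 0.0816). At the low dose 2 cytosolic genes were higher than vehicle and 3 lower, and SARS2 was higher, where 10.7% of all genes were called; none of the 6 was left without low dose replicate 1. At the medium dose no member was called by edgeR or DESeq2 (4 at an unadjusted p under 0.05), where 0.0652% of all genes were.

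With the remaining extracts few synthetases or none were called. With Saposhnikoviae Radix at the high dose no member was called in either direction against vehicle by edgeR or DESeq2 (4 at an unadjusted p under 0.05), where 0.593% of all genes were higher and 0.451% lower, and none against its low dose by either tool (0 at an unadjusted p under 0.05), where 0.0217% were higher and 0.0489% lower. Its high dose held 2 libraries of class 1 and 1 of class 2. With library class as a covariate, 2 mitochondrial genes were higher with Saposhnikoviae Radix than with vehicle and 1 lower, with no share of all genes given. Its medium dose had HARS1 higher (0.14 ± 0.04, where 7.94% of all genes were called), lost without vehicle or treated replicate 2 or 3, and its low dose no call by edgeR (4.10% of all genes called; 4 members at an unadjusted p under 0.05 and 1 by DESeq2). With Guibi-tang, VARS1 was the sole member called at the high dose. This group held 2 libraries of class 1 and 1 of class 2. With library class as a covariate 7 cytosolic members (5 higher, 2 lower) and 3 mitochondrial members (1 higher, 2 lower) were called against vehicle. The share of all genes called in that fit is not given here. With DESeq2 and with the replicate block, 2 cytosolic members were called. VARS1 had 96.26, 100.1 and 104.8 CPM at the Guibi-tang high dose, against 131.2, 127.9 and 125.2 CPM in vehicle, without overlap, for a log2 fold change of -0.35 ± 0.06 (adjusted p = 0.000129), where 5.05% of all genes were lower and 4.51% higher. It was also lower than at the Guibi-tang low dose (-0.21 ± 0.06, adjusted p = 0.0457), where 1.97% were lower and 0.962% higher. That call was lost without high dose replicate 1 or 2 or low dose replicate 1 or 3 (adjusted p up to 0.271), and no cytosolic member was called without the filter on low counts or with only the libraries compared. No member was called by edgeR or DESeq2 at the Guibi-tang medium dose (0.582% of all genes called; 0 members at an unadjusted p under 0.05) or low dose (0.261%; 2 members).

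With Saengmaek-san at the high dose, MARS2 was lower than vehicle (-0.35 ± 0.10, adjusted p = 0.0420), where 1.83% of all genes were lower and 1.96% higher. It had 14.21, 15.96 and 14.9 CPM with Saengmaek-san, against 20.52, 17.89 and 19.15 CPM in vehicle, and the call was lost without any 1 of the vehicle libraries or without high dose replicate 1 or 3 (adjusted p up to 0.182). High dose replicate 1 of Saengmaek-san stood apart in its mitochondrial median, at -0.21 against 0.02 and 0.08 in replicates 2 and 3. No member was called against the Saengmaek-san low dose, where 0.0598% of all genes were higher and 0.0109% lower, nor at the medium (0.391%) or low dose (0.522%) against vehicle, by edgeR or DESeq2 (1, 4 and 3 members at an unadjusted p under 0.05). Guibi-tang against Saengmaek-san at the high dose gave no member by edgeR and 2 by DESeq2 (5 at an unadjusted p under 0.05), where 0.636% of all genes were higher and 1.57% lower. Okbyeongpung-san had 1 library per dose and no test. At its high dose 9 cytosolic genes lay above the range of the vehicle libraries and 5 below (median log2 ratio 0.02), and 7 mitochondrial genes above and 3 below (median 0.04), where 39.1% of all genes lay above and 33.7% below. Its cytosolic and mitochondrial medians were 0.10 and 0.07 at the low dose and 0.07 and 0.12 at the medium dose.

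**Figure D5:**
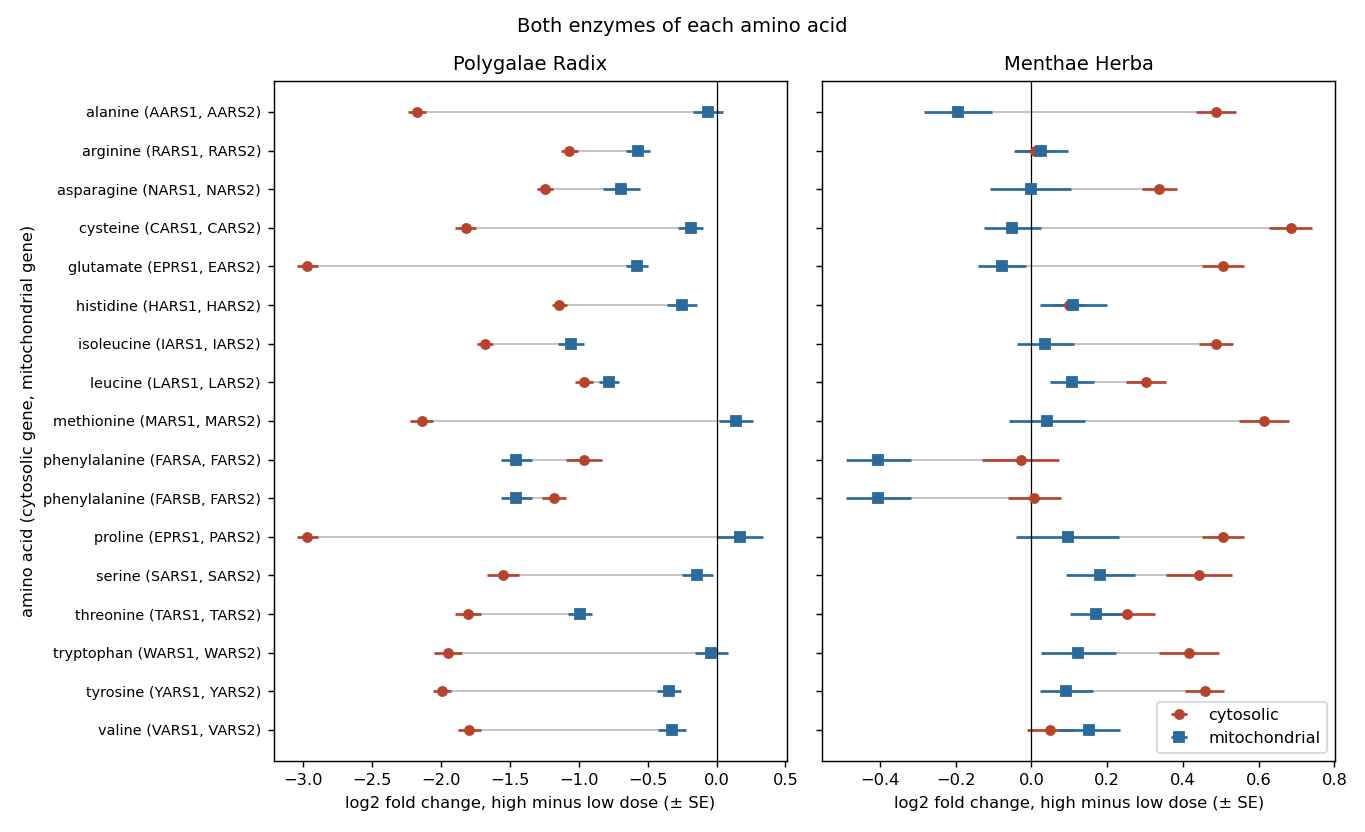
Log2 fold change, high minus low dose, of the cytosolic (circles) and mitochondrial (squares) enzyme of each amino acid, with SE bars, for Polygalae Radix (left) and Menthae Herba (right, on its own axis). The cytosolic point lies to the left of the mitochondrial one in 15 of 17 pairs at left and to its right in 14 of 17 pairs at right.

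Other genes under the same stress pathway were read from a list of 32 ATF4 targets and regulators outside the synthetases. With Menthae Herba at the high dose against its low dose 26 of them rose and 1 (SLC7A5, an amino acid transporter) fell, with a median of 0.74 beside the cytosolic synthetase median of 0.34, where 6.07% of all genes were higher and 9.45% lower. CHAC1, which degrades glutathione, rose by 2.40 ± 0.16, the secreted factor STC2 by 2.27 ± 0.11, the transcription factor DDIT3 by 1.71 ± 0.14 and SESN2, which senses leucine, by 1.57 ± 0.09. With Polygalae Radix at the high dose against its low dose 23 of the 32 fell and 4 rose (median -0.93), where 29.1% of all genes were lower and 27.9% higher. PHGDH, the first enzyme of serine synthesis (-3.51 ± 0.11), asparagine synthetase ASNS (-3.17 ± 0.09), CHAC1 (-2.79 ± 0.28) and SHMT2, which makes glycine in mitochondria (-2.56 ± 0.09), fell most. The 4 that rose, named after their values were seen, were the transcription factors ATF3 (1.502 ± 0.14), CEBPB (0.93 ± 0.27), DDIT3 (0.82 ± 0.17) and ATF4 (0.47 ± 0.16). Against vehicle, Soyo-san had 16 of the list higher and 4 lower (13.0% and 15.6% of all genes), Aucklandiae Radix 4 higher and 14 lower (18.5% and 17.3%), and Guibi-tang 11 higher and none lower (4.51% and 5.05%), led by CBS (0.67 ± 0.07) and ASNS (0.59 ± 0.06), beside 1 synthetase called.

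Among the partners of the synthetases in translation the picture was mixed, to be read against the same shares of all genes. For high against low dose these were 29.1% lower and 27.9% higher with Polygalae Radix, and 9.45% lower and 6.07% higher with Menthae Herba. Of 13 cytosolic translation factors, 12 fell and none rose with Polygalae Radix at the high dose against its low dose (median -0.78), led by the elongation factors EEF2 (-1.99 ± 0.08), EEF1A1 (-1.50 ± 0.11) and EIF5A (-1.48 ± 0.15), and all 3 scaffolds of the multisynthetase complex fell. With Menthae Herba 1 of the 13 factors rose against the low dose (EEF2, 0.22 ± 0.06; median of the list 0.06), and no scaffold was called. Of 19 genes of mitochondrial translation and tRNA maturation, 10 fell and 5 rose with Polygalae Radix (median -0.18). TUFM, the mitochondrial elongation factor (-1.79 ± 0.09), and ELAC2, which trims the ends of tRNAs (-1.05 ± 0.07), fell most. With Menthae Herba 3 of these 19 rose and none fell. WARS1 is known as an interferon-induced gene. Of 12 tested genes of an interferon list, 3 fell and none rose with Menthae Herba against its low dose, where WARS1 rose by 0.42 ± 0.08. With Polygalae Radix 6 fell and 2 rose, where WARS1 fell by 1.95 ± 0.10. Cell type markers moved in the same comparisons. All 5 fell with Polygalae Radix at the high dose against its low dose (KRT19 -3.62 ± 0.16, KRT8 -2.92 ± 0.13), and 4 of 5 fell with Menthae Herba (CDH1 -1.05 ± 0.08). Of the markers of other cells, all 3 tested of fibroblasts fell with Polygalae Radix (LUM -2.03 ± 0.39, COL3A1 -1.31 ± 0.17, COL1A1 -1.04 ± 0.14), as did the leukocyte marker tested, CD14 (-3.36 ± 0.28). With Menthae Herba COL3A1 (-1.34 ± 0.14) and CD14 (-0.57 ± 0.16) fell, and LUM (-0.43 ± 0.26) and COL1A1 (0.08 ± 0.11) were not called. No endothelial marker passed the filter on low counts. Transcripts of the mitochondrial genome took 14.36% of the counts in the class 2 Polygalae Radix high dose library, against 8.662 to 8.897% in vehicle, all class 2. They took 6.175% in the class 1 high dose library, against 6.84% and 5.58% in the low dose libraries, both class 1. The part of these in the synthetase values was not tested.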

How the data were processed

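The data were mRNA libraries of A549 cells from a directional kit, sequenced in pairs of 100 bases, per the labels. Expected counts per gene were deposited by the authors, made on GRCh38 with RSEM 1.3.3, STAR 2.7.3a, Trim Galore 0.6.5 and FastQC 0.11.9, per the submitters' processing notes. No source used here gives the annotation or the strand setting. Here they were rounded to whole numbers (9.95% of values had decimals). The edgeR 4.0.16 quasi-likelihood test was run in R 4.3.3 with TMM scaling and filterByExpr, which kept 18396 genes, over 57 libraries in 22 groups. P-values were adjusted by Benjamini-Hochberg over all genes in each of 31 comparisons, with a threshold of 0.05 (called). CPM are TMM-scaled. Okbyeongpung-san, with 1 library per dose, was compared as log2 ratios (prior count 2). Whether replicates were separate cultures is not in the labels, so the p-values cover only the spread among these libraries, which may be technical. Members, lists and the library class were chosen with earlier results of these data known. Named members are, per comparison, at most 6 cytosolic and 3 mitochondrial genes with the largest called change, amino acids called in opposite directions, and up to 4 called genes per list. Alternatives were DESeq2 1.42.0, its size factors, no filter, the replicate block, smaller fits, the library class and each library left out.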

Additional observations from a re-analysis of the deposited data

How the results depend on the processing

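The 19 cytosolic decreases with Polygalae Radix at the high dose, against vehicle and against its low dose, were called under every alternative tried (within a library class the high dose is 1 library), and no named member changed direction under any. Without GARS1 and KARS1 the cytosolic minus mitochondrial median of Polygalae Radix high against low dose moved to -1.4579, from -1.3455 with all members. Small counts of calls moved, and the cause was not tested except where fewer libraries enter. Shares of all genes called are given here for the main fits alone, so none stands beside the counts below. The replicate numbers were not used as pairs in the main fits, since in no comparison did all same-numbered libraries correlate above 0.1. The correlations were 0.0559 to 0.4143 in Guibi-tang, 0.0225 to 0.3397 in Saengmaek-san and -0.005 to 0.0478 in Menthae Herba (high against low). Replicate 3 of Guibi-tang and of Saengmaek-san was class 2 at every dose, and its part in these correlations was not tested.

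With the replicate block, cytosolic calls were 10 (Aucklandiae Radix high against low), 2 (Guibi-tang against its low dose, and against vehicle) and 3 (Guibi-tang against Saengmaek-san, with 1 mitochondrial), mitochondrial calls were 2 (Menthae Herba high against low), and calls against vehicle were 0 (Aucklandiae Radix low) and 2 (Polygalae Radix low).

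With the DESeq2 Wald test, cytosolic calls were 2 (Guibi-tang against Saengmaek-san, and against vehicle) and 1 (Saengmaek-san against vehicle), and low or medium dose calls were 3 (Aucklandiae Radix low), 2 (Polygalae Radix low, Saposhnikoviae Radix medium) and 1 (Saposhnikoviae Radix low). DESeq2 size factors gave 2 for Polygalae Radix low.

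With library class as a covariate, cytosolic calls were 11 (Aucklandiae Radix high against low), 2 (Guibi-tang high against low, and against Saengmaek-san), 7 (Guibi-tang against vehicle) and 3 (Saengmaek-san against vehicle). Mitochondrial calls were 3 (Guibi-tang, Saengmaek-san and Saposhnikoviae Radix against vehicle, Menthae Herba high against low) and 5 (Menthae Herba against Saposhnikoviae Radix). Low dose calls were 7 (Aucklandiae Radix), 9 (Menthae Herba), 4 (Polygalae Radix), 3 (Saengmaek-san), 2 (Saposhnikoviae Radix) and 11 (Soyo-san); medium dose calls were 5 (Aucklandiae Radix, Menthae Herba), 3 (Guibi-tang), 6 (Saposhnikoviae Radix) and 1 (Saengmaek-san, Soyo-san). Within class 1, an alternative chosen after seeing the data, cytosolic calls were 11 (Aucklandiae Radix high against low) and 2 (Guibi-tang high against low), and mitochondrial calls 3 (Menthae Herba high against low). Within class 2, also chosen later, several groups are 1 library each, whose spread is taken from the other groups. These are the high and medium doses of Polygalae Radix, the high dose of Saposhnikoviae Radix, every dose of Guibi-tang, and the medium and low doses of Saengmaek-san. Guibi-tang high against low is thus 1 library against 1 within class 2. There, cytosolic calls were 0 (Guibi-tang high against low), 5 (Guibi-tang against vehicle), 4 (Saengmaek-san against vehicle) and 2 (Soyo-san high against low), mitochondrial calls 3 (Guibi-tang), 4 (Saengmaek-san) and 1 (Saposhnikoviae Radix), and low or medium dose calls 6 and 1 (Saengmaek-san) and 13 and 1 (Soyo-san).

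Without the filter on low counts, cytosolic calls were 3 (Aucklandiae Radix high against low), 0 (Guibi-tang and Soyo-san high against low) and 4 (Soyo-san against vehicle). Mitochondrial calls were 1 (Aucklandiae Radix high against low), 5 (Aucklandiae Radix against vehicle), 0 (Menthae Herba against Saposhnikoviae Radix) and 3 (Soyo-san against vehicle). Low or medium dose calls were 0 (Aucklandiae Radix low, Polygalae Radix low, Menthae Herba medium, Saposhnikoviae Radix medium), 1 (Menthae Herba low) and 2 (Soyo-san low). With only the libraries compared in the fit, cytosolic calls were 11 (Aucklandiae Radix high against low, Soyo-san against vehicle) and 0 (Guibi-tang high against low), mitochondrial calls 5 (Aucklandiae Radix high against low) and 0 (Saengmaek-san against vehicle). Low dose calls were 9 (Aucklandiae Radix), 8 (Polygalae Radix), 11 (Saposhnikoviae Radix) and 12 (Soyo-san), and medium dose calls 10 (Aucklandiae Radix), 11 (Menthae Herba), 13 (Polygalae Radix), 3 (Saposhnikoviae Radix) and 6 (Soyo-san).

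Leaving out each library in turn, cytosolic calls ran from 0 to 1 (Guibi-tang and Soyo-san high against low), 0 to 2 (Guibi-tang against Saengmaek-san) and 4 to 6 (Soyo-san against vehicle). Mitochondrial calls ran from 0 to 1 (Guibi-tang against Saengmaek-san, Saengmaek-san against vehicle), 1 to 2 (Menthae Herba high against low), 0 to 3 (Menthae Herba against Saposhnikoviae Radix), 3 to 5 (Menthae Herba against vehicle), 4 to 7 (Aucklandiae Radix against vehicle), 2 to 5 (Soyo-san against vehicle) and 1 in every case (Aucklandiae Radix high against low). Low or medium dose calls ran from 0 to 1 (Aucklandiae Radix low and medium, Polygalae Radix low, Menthae Herba medium, Saposhnikoviae Radix medium), 0 to 5 (Menthae Herba low) and 0 to 3 (Soyo-san low). Of named members, 446 values were on the same side of the threshold and 121 lost it in these runs.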
